A study of Mus musculus with 6 samples.

Results

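The 9 genes described here make up the oxygen carrier of red blood cells and 2 other parts of the red cell: the globin genes Hba-a1, Hba-a2, Hba-x, Hbb-b1, Hbb-b2, Hbb-y and Hbb-bh1, the heme synthesis gene Alas2 and the membrane gene Slc4a1. They were chosen by name, and all 9 had a row among the 24346 gene names of the deposited tables. The values come from calvaria of newborn mice, the roof of the skull, dissected with the interparietal and occipital bone and without ear cartilage. The 3 control libraries are from Pth1rfl/fl animals, in which the receptor gene for parathyroid hormone and its related protein carries loxP-flanked alleles. The 3 libraries labelled mutant are from Prx1-Cre;Pth1rfl/fl animals, which have the same floxed alleles and a Cre transgene known to act in mesenchyme of limb and skull. All 6 libraries share the floxed alleles, so no wild-type calvaria enters the comparison. Neither the strain nor the number of animals behind a library was given in the labels. The p-values therefore measure only the spread between these samples.

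Pth1r, the targeted gene, had 89.2, 93.3 and 102 FPKM in control libraries, against 127, 125 and 142 FPKM under the mutant label. It was not lower there, so its level does not bear out the label. The labels do not say which exons are removed, so this level cannot decide against the label either. The directions given rest on the labels. Library 3 labelled mutant stood apart from the other libraries in the red cell genes, and the group comparison is given with and without it.

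Hemoglobin is a tetramer of alpha-type and beta-type chains, each holding a heme. In the mouse, primitive red cells of the yolk sac make the embryonic chains Hba-x, Hbb-y and Hbb-bh1, and definitive red cells of fetal liver, spleen and marrow make the adult chains. Alas2 encodes the erythroid form of the first enzyme of heme synthesis, and Slc4a1 encodes band 3, the anion exchanger that anchors the red cell membrane to its skeleton. Definitive red cells lose their nucleus, and reticulocytes, the youngest circulating red cells, still carry globin messenger RNA.

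Hba-a1 with Hba-a2, and Hbb-bs with Hbb-bt, are near-identical copies, which bears on how the adult rows can be read. In the GENCODE M21 annotation of GRCm38, which is the mm10 assembly, Hba-x, Hba-a1 and Hba-a2 lie in that order on the plus strand of chromosome 11. Hba-x spans 32276400 to 32278116, Hba-a1 spans 32283511 to 32284465, and Hba-a2 spans 32296489 to 32297298. On the minus strand of chromosome 7, the adult genes Hbb-bt and Hbb-bs span 103812524 to 103813996 and 103826534 to 103828096. The embryonic genes Hbb-bh1 and Hbb-y of the same cluster span 103841637 to 103843164 and 103851749 to 103853216. Each of these globin genes has 3 exons in that annotation. Alas2 spans 150547375 to 150570638 of chromosome X on the plus strand, and Slc4a1 spans 102348824 to 102366203 of chromosome 11 on the minus strand. Inbred mice carry 1 of several haplotypes of the adult beta genes, named Hbb-bs with Hbb-bt or Hbb-b1 with Hbb-b2, and GENCODE M21 holds only the first pair. The deposited tables hold rows for Hbb-b1, Hbb-b2 and Hbb-bs, and the sources used here do not state which genomic copy each row stands for.

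The coding sequences of Hba-a1 and Hba-a2 were identical at 425 of 426 bases, and 87.8% of the 50-base words of the Hba-a1 coding sequence also occurred in the Hba-a2 transcript. Embryonic Hba-x was 62.79% identical to Hba-a1 and shared 0 such words. The stretch that holds the 1 difference is shown from coding base 351 to 410, counted from the start codon, with capitals where a gene differs from Hba-a1.
Hba-a1: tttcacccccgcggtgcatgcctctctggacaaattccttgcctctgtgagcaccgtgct
Hba-a2: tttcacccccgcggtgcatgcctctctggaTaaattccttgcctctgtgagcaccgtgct
Hba-x: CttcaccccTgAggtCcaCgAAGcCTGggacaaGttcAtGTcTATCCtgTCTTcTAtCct

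The beta side had the same shape. Hbb-bs and Hbb-bt were identical at 440 of 441 coding bases and shared 93.6% of the words, whereas Hbb-y and Hbb-bh1 were 74.38% and 73.92% identical to Hbb-bs and shared 0 words with it. Coding bases 382 to 441 are shown, with capitals where a gene differs from Hbb-bs. At this word length the embryonic coding sequences can be told from the adult ones compared. Most words within each of these adult pairs cannot be told apart. Hbb-b1 and Hbb-b2 were not compared, because GENCODE M21 does not hold them.
Hbb-bs: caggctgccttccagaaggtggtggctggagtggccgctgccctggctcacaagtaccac
Hbb-bt: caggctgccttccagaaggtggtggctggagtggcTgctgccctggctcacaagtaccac
Hbb-y: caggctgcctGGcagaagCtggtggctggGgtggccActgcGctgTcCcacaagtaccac
Hbb-bh1: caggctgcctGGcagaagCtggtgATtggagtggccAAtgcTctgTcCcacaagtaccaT

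The bases before the start sites are also shown, as a description of the genes. They are given for the 5 of the 9 genes that the RefSeq promoter table (GRCm38.p6) held, and for Hbb-bs and Hbb-bt. The adult rows other than Hba-a2 varied together across the libraries, but Hbb-b1, Hbb-b2 and Slc4a1 had no window. Why the rows varied together was not tested. Each window is the 130 bases before the RefSeq start of the gene. These starts differ from the ends of the GENCODE spans given above. The windows of Hba-a1, Hba-x and Hbb-bs lie inside those spans, and the other windows overlap them in part. Capitals mark 4 motifs found by exact letters on either strand: CCAAT as the CAAT box, then CACCC as the CAC box that Klf1 is known to bind, then GATAA as the core of the Gata1 motif, and lastly TATAA as the core of the TATA box. The CAAT box letters occurred in 22.4% of all 32851 windows of that length, those of the CAC box in 33.7%, the Gata1 core in 11.4% and the TATA core in 12.7%. Where motifs overlap or adjoin, their capitals run together.
Hba-a1: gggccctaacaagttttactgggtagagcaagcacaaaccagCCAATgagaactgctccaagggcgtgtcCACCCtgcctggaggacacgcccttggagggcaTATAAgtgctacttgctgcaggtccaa
Hba-a2: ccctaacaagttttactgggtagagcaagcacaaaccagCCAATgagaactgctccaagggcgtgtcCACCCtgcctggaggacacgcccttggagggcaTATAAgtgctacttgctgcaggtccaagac
Hbb-bs: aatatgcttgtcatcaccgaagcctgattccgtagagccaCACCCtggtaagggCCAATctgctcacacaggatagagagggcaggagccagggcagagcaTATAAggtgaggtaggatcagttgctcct
Hbb-bt: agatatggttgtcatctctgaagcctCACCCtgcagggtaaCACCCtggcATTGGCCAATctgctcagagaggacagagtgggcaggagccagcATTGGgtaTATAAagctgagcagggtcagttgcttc

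These 4 adult windows lie at chr11:32283542-32283671 and chr11:32296362-32296491 on the plus strand and at chr7:103827929-103828058 and chr7:103813924-103814053 on the minus strand. Each of them held the CAAT box, the CAC box and the TATA core, and none of these 4 held the Gata1 core. The bases before Hba-a1 and Hba-a2 are the same letters apart from a shift of the window. The windows of the embryonic genes and of Alas2 held other sets of these letters.
Hba-x: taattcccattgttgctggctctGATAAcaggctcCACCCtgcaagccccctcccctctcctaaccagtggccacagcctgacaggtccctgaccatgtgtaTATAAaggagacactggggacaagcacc
Hbb-y: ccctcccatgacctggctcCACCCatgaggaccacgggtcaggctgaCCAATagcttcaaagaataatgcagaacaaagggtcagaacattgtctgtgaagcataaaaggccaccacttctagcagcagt
Alas2: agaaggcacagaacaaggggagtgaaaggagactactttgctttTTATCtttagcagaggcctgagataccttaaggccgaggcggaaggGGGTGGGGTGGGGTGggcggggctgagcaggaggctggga

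The Hba-x window (chr11:32276470-32276599, plus strand) held the CAC box, the Gata1 core and the TATA core without the CAAT box, and the Hbb-y window (chr7:103853208-103853337, minus strand) held the CAAT box and the CAC box. The Alas2 window (chrX:150547287-150547416, plus strand) held the Gata1 core 1 time and the CAC box 3 times, both read on the opposite strand. These matches describe the letters in the windows and were not tested as binding sites.

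Adult globin messenger RNA was abundant in every library, and its amount varied most within the libraries labelled mutant. Values are FPKM, which divide the fragments of a gene by its transcript length and by a measure of the size of the library. Hba-a1, an adult alpha chain gene, was at 5468, 4607 and 6667 FPKM in controls 1 to 3. In libraries 1 to 3 labelled mutant it had 11515, 9783 and 2584 FPKM. The control values lay between those of the libraries labelled mutant, of which 2 were above every control and the third was below every control. Hbb-b1, the row that held most adult beta chain signal, stood at 4820, 4265 and 6624 FPKM in the control group and at 11790, 12792 and 2409 FPKM under the mutant label. It was the most abundant row of the whole table in libraries 1 and 2 labelled mutant, ranked 7, 8 and 5 in controls 1 to 3 and ranked 22 in library 3. Col1a1, the main collagen gene of bone, ranked 1 in controls 1 to 3 and in library 3, and ranked 3 in libraries 1 and 2.

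Hbb-b2, the other adult beta row of that haplotype, measured 1245, 1076 and 1655 FPKM across controls 1 to 3 and 1681, 2272 and 571 FPKM across libraries 1 to 3 labelled mutant. Hbb-bs had 198, 170 and 135 FPKM in control libraries, against 264, 284 and 71.3 FPKM under the mutant label. Library 3 labelled mutant was the lowest and libraries 1 and 2 the highest in both rows, although library 1 exceeded control 3 only slightly in Hbb-b2.

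The 2 adult genes outside the globins had lower levels, with the same lowest library and the same 2 highest libraries. Alas2 stood at 74.1, 63.5 and 99.1 FPKM in the control group and at 155, 171 and 39.2 FPKM under the mutant label. Slc4a1 measured 2.48, 3.28 and 5.06 FPKM across controls 1 to 3 and 5.82, 7.27 and 1.82 FPKM across libraries 1 to 3 labelled mutant. From the lowest to the highest library, the level rose 4.46-fold for Hba-a1, 5.31-fold for Hbb-b1, 3.98-fold for Hbb-b2, 4.36-fold for Alas2 and 3.995-fold for Slc4a1.

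**Figure D1:**
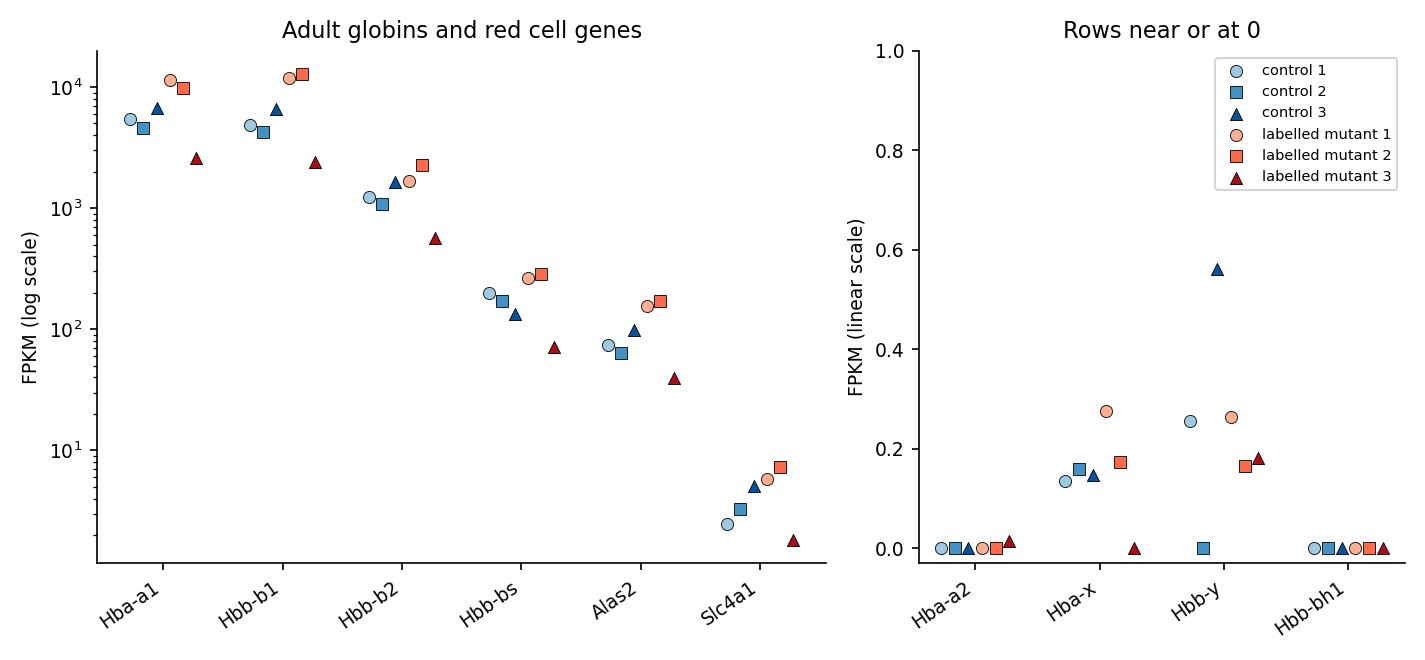
FPKM of the 9 genes and of Hbb-bs in each of the 6 libraries, on a log axis for the adult genes (left) and a linear axis for rows near or at 0 (right), 1 point per library. In each row on the left, library 3 labelled mutant is the lowest point and libraries 1 and 2 labelled mutant are the highest.

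The remaining 4 rows were at or near 0. Hba-a2 was listed at 0 in 5 libraries and at 0.0141 FPKM in library 3 labelled mutant, although it differs from Hba-a1 by 1 coding base. The sources used here do not state how fragments shared by such copies were divided, so the Hba-a1 row may hold fragments of both adult alpha genes. Hba-x, the embryonic alpha chain gene, had 0.134, 0.159 and 0.147 FPKM in controls, 0.277 and 0.173 FPKM in libraries 1 and 2 labelled mutant, and was listed at 0 in library 3. Hbb-y, an embryonic beta chain gene, had 0.256 and 0.561 FPKM in controls 1 and 3, was listed at 0 in control 2, and had 0.264, 0.165 and 0.182 FPKM in the libraries labelled mutant. Hbb-bh1, the other embryonic beta chain gene, was listed at 0 in all 6 libraries. None of 10 genes that every cell uses was listed at 0 in any library.

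Summed, the embryonic rows amounted to 0.391, 0.159 and 0.708 FPKM in the control group and 0.541, 0.338 and 0.182 FPKM under the mutant label. They were between 0.00134% and 0.004695% of all globin signal. The control mean of that share was 0.0032% ± 0.00157 (SD, n = 3) and the mean under the mutant label 0.00224% ± 0.000949 (SD, n = 3; exact permutation test, two-sided, p = 0.4). With 3 libraries in each group such an exact test cannot go below p = 0.1. At levels this low, the embryonic sum followed a different order of libraries from the adult genes, with control 2 lowest and control 3 highest.

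The adult alpha rows and the adult beta rows were also summed. This lessens but does not remove the dependence on how shared fragments were divided, since FPKM also divides by the length of each transcript. The adult alpha sum had a control mean of 5581 ± 1035 FPKM and a mean under the mutant label of 7961 ± 4736 FPKM (SD, n = 3 each). The adult beta sum of Hbb-b1, Hbb-b2 and Hbb-bs had means of 6729 ± 1506 and 10712 ± 6682 FPKM (SD, n = 3 each). Both means were higher under the mutant label, but the spread among those 3 libraries was larger than the difference. All globin rows together took 2.16%, 1.94% and 2.88% of the summed FPKM in controls and 4.62%, 4.49% and 1.04% in the libraries labelled mutant.

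Within every library the adult alpha sum was below the adult beta sum. The alpha sum rests on the Hba-a1 row, as Hba-a2 was at or near 0. How shared fragments were divided is unknown, so the ratio does not show whether the messenger RNAs were balanced. The ratio of the adult alpha to the adult beta sum was 0.873, 0.836 and 0.792 in the control group and 0.838, 0.637 and 0.847 under the mutant label, so library 2 labelled mutant stood lowest. The group means differed by -0.0597 (exact permutation test, two-sided, p = 0.7). Alas2 kept nearly the same proportion to globin in all 6 libraries. Per 1000 FPKM of adult globin there were 6.32, 6.27 and 6.57 FPKM of Alas2 in the control group and 6.12, 6.81 and 6.96 FPKM under the mutant label, a 1.14-fold range where Alas2 itself ranged 4.36-fold. Slc4a1 varied more against globin, between 0.211 and 0.336 FPKM per 1000 FPKM of adult globin, with control 1 lowest.

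The division of beta signal among the 3 adult rows differed in order from the levels. Hbb-b1 made up 76.9%, 77.4% and 78.7% of the adult beta sum in controls and 85.8%, 83.4% and 78.95% in the libraries labelled mutant. Hbb-b2 made up 19.9%, 19.5% and 19.7% in controls and 12.2%, 14.8% and 18.7% in the libraries labelled mutant. The groups did not overlap in either share, and exact permutation tests, two-sided, gave p = 0.1 for each, the smallest p this design allows. In the Hbb-b1 share, library 3 labelled mutant at 78.95% was only just above control 3 at 78.7%. The Hbb-b1 and Hbb-b2 shares together made up nearly all of the sum, so they are not separate results. The levels of 16.1% of all tested names did not overlap either, but levels are no like background for such shares. These shares were examined after the values had been seen, and how far the division follows from reads that the rows share was not tested.

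**Figure D2:**
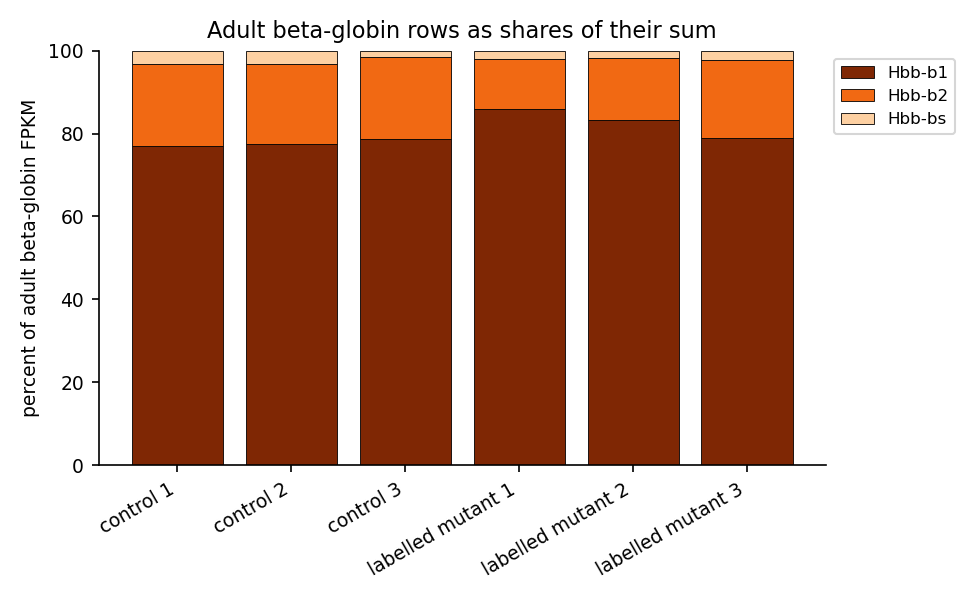
Shares of Hbb-b1, Hbb-b2 and Hbb-bs in the summed FPKM of the adult beta-globin rows, in percent, as 1 stacked bar per library. The Hbb-b1 share spans 76.9% to 78.7% over the controls and 78.95% to 85.8% over the libraries labelled mutant.

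The comparison set the 3 libraries labelled mutant against the 3 controls, and for the levels of the red cell genes it showed no difference larger than the replicate spread. Of the 9 genes, 5 had a mean of at least 1 FPKM and were tested in limma on log2(FPKM + 1). With Benjamini-Hochberg adjustment over 13180 names, 0 of the 5 passed at an adjusted p of 0.05, where 80 of all names or 0.607% passed, 0.524% with a higher and 0.0835% with a lower level under the mutant label. At an unadjusted p under 0.05 the counts were 0 of the 5 and 1388 of all names, or 10.5%. The median log2 difference was 0.27 over the 5 genes and 0.00 over all tested names.

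Hbb-b1 showed a log2 difference of 0.47 ± 0.61 (SE; limma, Benjamini-Hochberg adjusted p = 0.875), with a 95% interval from -0.98 to 1.92. For Hba-a1 the difference was 0.26 ± 0.53 (SE), with an interval from -0.999 to 1.53, and for Alas2 it was 0.38 ± 0.53 (SE), from -0.87 to 1.64. Slc4a1 had 0.27 ± 0.41 (SE), from -0.69 to 1.24, and Hbb-b2 had -0.01 ± 0.48 (SE), from -1.14 to 1.13. Each interval reaches from a fall to a rise of about 1 log2 unit or more, apart from the lower bounds of Alas2 and Slc4a1, so neither equal levels nor a change of that size is shown. Refitted with summed copies, the adult alpha sum differed by 0.26 ± 0.53 (SE; limma, Benjamini-Hochberg adjusted p = 0.928) and the adult beta sum by 0.38 ± 0.59 (SE; adjusted p = 0.899). Exact permutation tests of the summed FPKM, two-sided, gave p = 0.4 for each.

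Leaving out any of the 3 libraries labelled mutant moved these differences. Without library 3 labelled mutant, the log2 difference was 0.94 ± 0.17 (SE) for Hba-a1, 1.26 ± 0.19 for Hbb-b1, 0.58 ± 0.21 for Hbb-b2, 1.06 ± 0.18 for Alas2 and 0.74 ± 0.24 for Slc4a1. All 5 then had an unadjusted p under 0.05, as did 9.84% of all names, and libraries 1 and 2 labelled mutant were above the 3 controls in all 5, where 26.2% of names had groups that did not overlap. Still 0 of the 5 passed over all names, of which 0.265% passed (0.227% higher and 0.0378% lower), with adjusted p between 0.0962 and 0.437 (limma with Benjamini-Hochberg adjustment). Library 3 was the lowest in each of the 5 genes, so larger differences and smaller SEs follow from leaving it out. The 5 genes also varied together and do not count as 5 separate results. The fit without library 3 is therefore a description and not a test of a group difference. Without library 1 or library 2 labelled mutant, the difference for Hba-a1 was -0.13 or -0.02, and for Hbb-b1 it was 0.11 or 0.05.

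**Figure D3:**
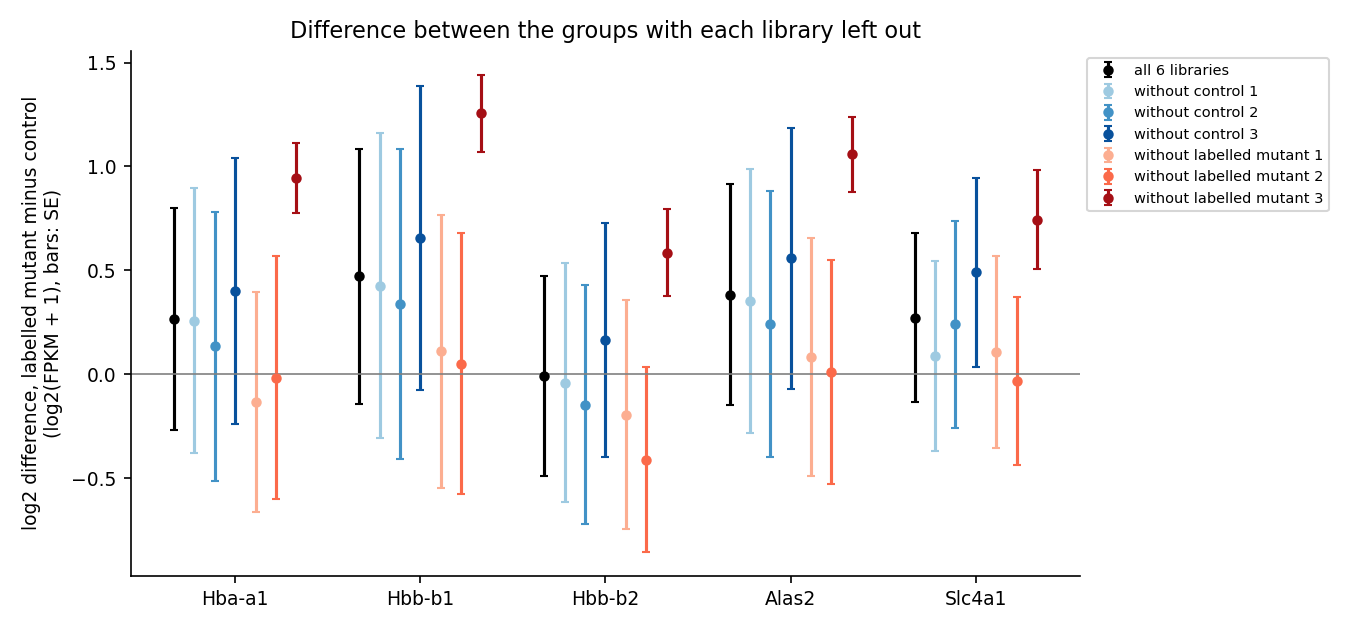
Log2 difference between the groups on log2(FPKM + 1), labelled mutant minus control, for the 5 tested genes with all 6 libraries and with each library left out, bars showing the SE. The points without library 3 labelled mutant lie highest for each gene, between 0.58 and 1.26.

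Several facts about the whole series stand beside this. The depth of sequencing is unknown, because no label or header states read totals, and the summed FPKM of a library ran from 521168 to 559624. Bone markers were present in all 6 libraries, with Col1a1 between 9427 and 13131 FPKM and highest in library 3 labelled mutant. Of 8 bone and cartilage genes 1 passed, beside 0.607% of all tested names. It was the bone matrix gene Ibsp, with a ratio of 1.93. Col2a1, the cartilage collagen gene, and Alpl had 0.244 and 1.41. In library 3 labelled mutant there were 0.429 FPKM of adult globin per FPKM of Col1a1, against 0.981 to 1.39 in controls and 2.665 in libraries 1 and 2 labelled mutant. Col1a1, the divisor of this ratio, was itself highest in library 3. What lies behind the low ratio was not tested, and fewer red cells and less RNA per red cell cannot be told apart in such bulk tissue.

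Genes whose level followed that of globin were sought among all tested names outside the globins and the 9 genes. They were ranked by Pearson's r over the 6 libraries between log2(FPKM + 1) and the log2 adult globin sum. Of all tested names, globins and the 9 genes included, 541 had a log2 range of at least 0.5 times that of globin. Only names with such a range were ranked. Such an r is a description of 6 libraries that share their scaling. Of all tested names, whatever their range, 0.698% reached 0.9 or more. The share among the names with such a range was not worked out, so 0.698% is no background for the ranking. For scale, r was 0.996 for Alas2 and 0.938 for Slc4a1.

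The closest included genes known from late red cells. The 2 libraries farthest from the median of the globin sum were libraries 1 and 3 labelled mutant. Bpgm, the red cell enzyme that makes 2,3-bisphosphoglycerate, the regulator of oxygen release, measured 21.6, 23.2 and 31.7 FPKM across controls 1 to 3 and 40.9, 49.7 and 14.9 FPKM across libraries 1 to 3 labelled mutant (Pearson r = 0.975, and 0.972 without those 2 libraries). Library 3 labelled mutant was lowest and libraries 1 and 2 were highest.

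Also among the first 11 were Rab20 (r = 0.974), Isg20 (0.972), the ubiquitin-conjugating enzyme gene Ube2l6 (0.954), BC051226 (0.934), Trim10, a ubiquitin ligase gene of terminal red cell development (0.915), Fam57b (0.911), the interferon-induced gene Rsad2 (0.905) and the neutrophil granule gene Camp (0.904). Isg20 stood at 12.6, 10.7 and 14.4 FPKM in the control group and at 21.5, 31.5 and 6.11 FPKM under the mutant label, and Ube2l6 had 28.0, 29.0 and 38.9 FPKM against 43.5, 57.5 and 20.8 FPKM. Ranks 12 to 15 were Scn3b, Snrpn, Bhlhe22 and Gm5483, with r from 0.858 down to 0.834. Scn3b and Bhlhe22, known from neurons, had their highest value in library 2 labelled mutant alone, at 6.64 and 3.20 FPKM, while library 1 had 4.91 and 1.63 FPKM. None of the 15 names ranked passed in limma (lowest adjusted p = 0.591, Benjamini-Hochberg adjustment).

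**Figure D4:**
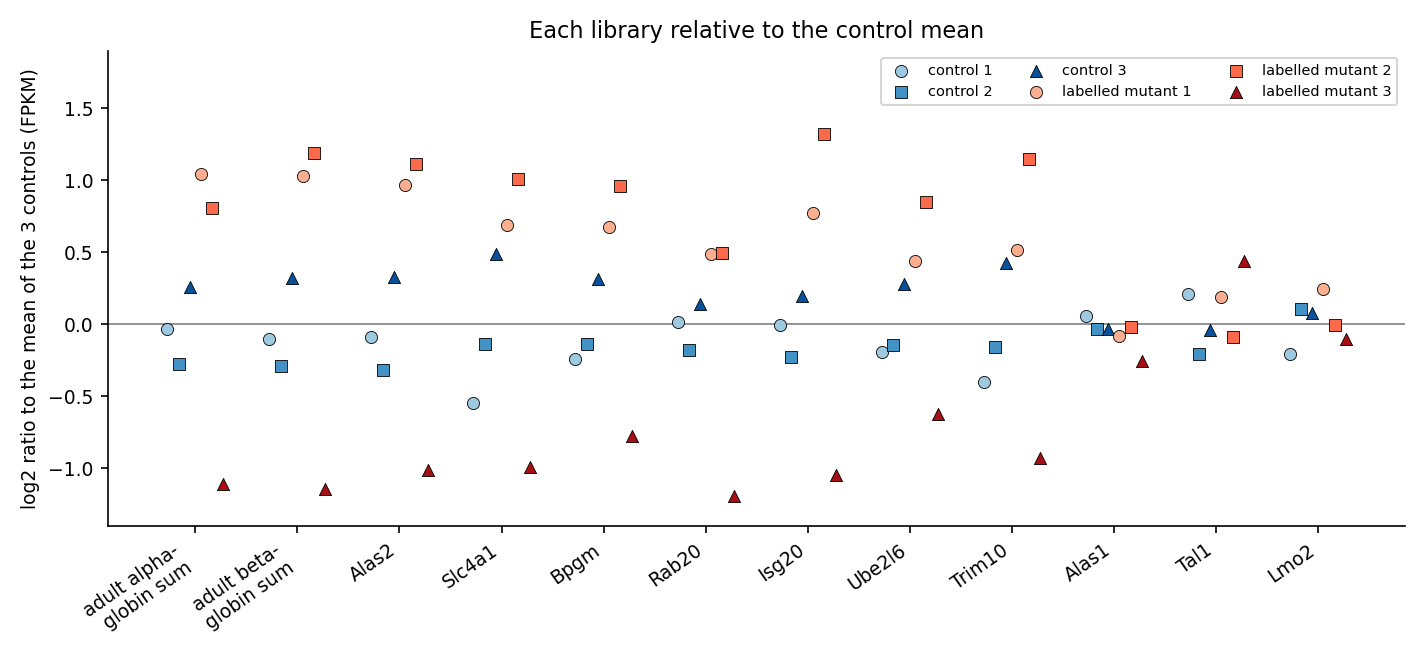
Log2 ratio of each library to the mean of the 3 controls, from FPKM, for the adult globin sums, Alas2, Slc4a1, 5 genes whose level followed globin and 3 genes for contrast (Alas1, Tal1 and Lmo2), 1 point per library. From the globins to Trim10 library 3 labelled mutant lies lowest and libraries 1 and 2 labelled mutant highest, an order that the last 3 genes do not show. The 5 genes were ranked by r with globin and the last 3 were picked by name, so this contrast follows from the choice. Of the 10 tested regulators, 2 did have that order.

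The other genes of the red cell were taken from fixed lists. An r of at least 0.9 with globin was reached by 2 of 16 tested genes of heme synthesis, 3 of 11 of the membrane list, 1 of 10 regulators and 4 of 11 late red cell genes, Alas2 and Slc4a1 included, beside 0.698% of all tested names. Of 16 genes of heme synthesis, all were tested and 0 passed, 8 with a positive and 8 with a negative log2 difference (median 0.00). Alas1, the form of the first enzyme used by all other tissues, measured 17.2, 16.1 and 16.1 FPKM across controls 1 to 3 and 15.6, 16.3 and 13.8 FPKM across libraries 1 to 3 labelled mutant. The ratio of Alas2 to Alas1 was accordingly 4.32, 3.93 and 6.15 in the control group and 9.91, 10.5 and 2.84 under the mutant label. Besides Alas2, only the mitochondrial iron importer gene Slc25a37 reached an r of 0.9 with globin in this list, over a log2 range of just 0.21. Fech, the enzyme that inserts the iron into heme, had 24.9, 24.1 and 27.2 FPKM in control libraries, against 29.5, 31.9 and 24.4 FPKM under the mutant label. The smallest p values were those of Uros and Urod, enzymes of the porphyrin steps, and Slc25a38, a mitochondrial glycine carrier gene, at ratios of the mean under the mutant label to the control mean of 0.881, 1.09 and 0.863. Glrx5, a mitochondrial glutaredoxin gene and beside Alas2 the most abundant of the list, had a ratio of 0.9715.

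Of 19 membrane and skeleton genes with a row, 11 were tested and 0 passed (7 positive, 4 negative, median log2 difference 0.04). Besides Slc4a1, Epb4.1, the older name of the protein 4.1 gene Epb41, reached an r of 0.9, with 18.4, 17.8 and 19.9 FPKM in the control group and 25.6, 27.1 and 14.4 FPKM under the mutant label. Ank1, the ankyrin that binds band 3, stood at 6.91, 4.46 and 5.64 FPKM in the control group and at 5.84, 7.03 and 4.59 FPKM under the mutant label, and Sptb, beta-spectrin, had a ratio of 0.857. The most abundant genes of the list, the water channel gene Aqp1 and the glycophorin C gene Gypc, are also expressed outside red cells and had ratios of 1.03 and 0.932.

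Among 17 late red cell genes with a row, 11 were tested and 0 passed (9 positive, 2 negative, median 0.22). Mkrn1 measured 20.9, 19.8 and 21.6 FPKM across controls 1 to 3 and 28.9, 32.3 and 17.1 FPKM across libraries 1 to 3 labelled mutant, and it reached an r of 0.9 along with Bpgm and Trim10. Prdx2, an antioxidant enzyme that is abundant in red cells and common elsewhere, had 203, 205 and 203 FPKM in control libraries, against 222, 226 and 198 FPKM under the mutant label. Bnip3l, which clears mitochondria from maturing red cells, had a ratio of 1.15, and Fam46c had 1.31.

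Gata1 and Klf1, regulators of the red cell lineage, were under 1 FPKM in every library and did not share the order of the globins, which 2 of the 10 tested regulators had. Gata1, the master transcription factor of red cells and megakaryocytes, stood at 0.246, 0.255 and 0.101 FPKM in the control group and at 0.791, 0.237 and 0.306 FPKM under the mutant label. Klf1, the factor that switches on adult beta-globin, measured 0.314, 0.558 and 0.344 FPKM across controls 1 to 3 and 0.445, 0.252 and 0.391 FPKM across libraries 1 to 3 labelled mutant. In both genes library 2 labelled mutant, with the highest Hbb-b1, was below at least 1 control. Of 16 regulators, 10 were tested and 0 passed (7 positive, 3 negative, median 0.02 on the log2 scale). E2f2, a cell cycle factor of red cell precursors, alone reached an r of 0.9, between 2.01 and 3.21 FPKM. Cbfa2t3, Lyl1 and Gata2, transcription regulators of blood cells, had ratios of 1.125, 0.929 and 0.822, and Lmo2 and Ldb1, partners of Gata1 and Tal1, had 1.04 and 1.00. Epo, the hormone that drives red cell formation, was listed at 0 in all 6 libraries.

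The iron uptake list held 1 of 8 tested genes that passed, beside 0.607% of all tested names. Tfrc, the transferrin receptor of red cell precursors and of many growing cells, rose from a control mean of 10.1 ± 0.378 FPKM to 16.0 ± 1.05 FPKM (SD, n = 3 per group). Its log2 difference was 0.62 ± 0.07 (SE; limma, Benjamini-Hochberg adjusted p = 0.0166). Its values of 17.2, 15.3 and 15.5 FPKM in the libraries labelled mutant lay above the 3 controls, and library 3 did not stand apart as it did in the globins. The other leading genes of the list, Steap3, Aco1 and the ferritin genes Ftl1 and Fth1, had ratios of 1.13, 0.927, 1.09 and 1.04. In the list of heme breakdown and iron recycling 0 of 8 tested genes passed (4 positive, 4 negative, median 0.05). Hp, haptoglobin, which binds free hemoglobin and is also made by neutrophils, had 2.29, 3.26 and 2.31 FPKM in control libraries, against 6.56, 6.896 and 4.83 FPKM under the mutant label (adjusted p = 0.0588). The biliverdin reductase genes Blvra and Blvrb had ratios of 1.21 and 1.16, and Lrp1, a receptor gene that clears heme bound to hemopexin, had 0.924. Hmox1, which opens the heme ring, stood at 100.1, 130 and 76.0 FPKM in the control group and at 114, 118 and 64.0 FPKM under the mutant label.

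Markers of other cells of blood and vessel were read beside the red cell genes, and their part in the result was not tested. The summed level of 8 neutrophil genes was 40.7 to 55.5 FPKM in controls and 101, 78.7 and 50.9 FPKM in libraries 1 to 3 labelled mutant. It was thus higher in libraries 1 and 2, as the globins were, with 0 of 5 tested genes past the threshold, 1 of them (Camp) at an r of 0.9 and Mpo and Elane under 0.49 FPKM throughout. S100a9, Itgam and Ngp, also known from neutrophils, had ratios of 1.475, 1.33 and 2.74. S100a8 measured 17.8, 22.5 and 26.5 FPKM across controls 1 to 3 and 41.2, 41.3 and 28.2 FPKM across libraries 1 to 3 labelled mutant.

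In 8 macrophage genes the sum was 349 to 393 FPKM in the control group and 436 to 459 FPKM under the mutant label, with 2 of 8 past the threshold (Cd68 and Csf1r, with ratios of 1.995 and 1.49). Adgre1, C1qb and C1qc had 1.19, 1.12 and 1.18. Across 7 endothelial genes it was 203 to 220 and 239 to 241 FPKM, with 1 of 7 past it (Emcn, with a ratio of 1.305), and Flt1, Cdh5 and Pecam1 had 1.31, 1.155 and 1.11. Across 7 osteoclast genes it was 584 to 657 and 1604 to 1750 FPKM, with 7 of 7 past it. Of all tested names 0.607% passed, and the lists were chosen with earlier results of these data known, so such counts are descriptions. The ratios of Ctsk, Acp5, Mmp9, Atp6v0d2, Oscar, Dcstamp and Ocstamp ran from 2.21 for Ctsk to 3.72 for Ocstamp. In these 3 lists library 3 labelled mutant was close to the other libraries of its label, and 0 of their genes reached an r of 0.9. Platelet and megakaryocyte genes summed to 161 to 197 FPKM in the control group and 191 to 213 FPKM under the mutant label, with 1 of 7 tested past the threshold (Itgb3, which osteoclasts also express, with a ratio of 2.203). Pf4, Vwf and Gp1bb had 1.15, 0.899 and 0.733. B cell precursor genes summed to 13.6 to 16.1 and 14.5 to 16.0 FPKM, most of it from Ebf1, which marrow-supporting and fat-forming cells also express, and Vpreb2 was listed at 0 throughout. Ebf1 had a ratio of 1.04 and Cd79b 0.951.

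**Figure D5:**
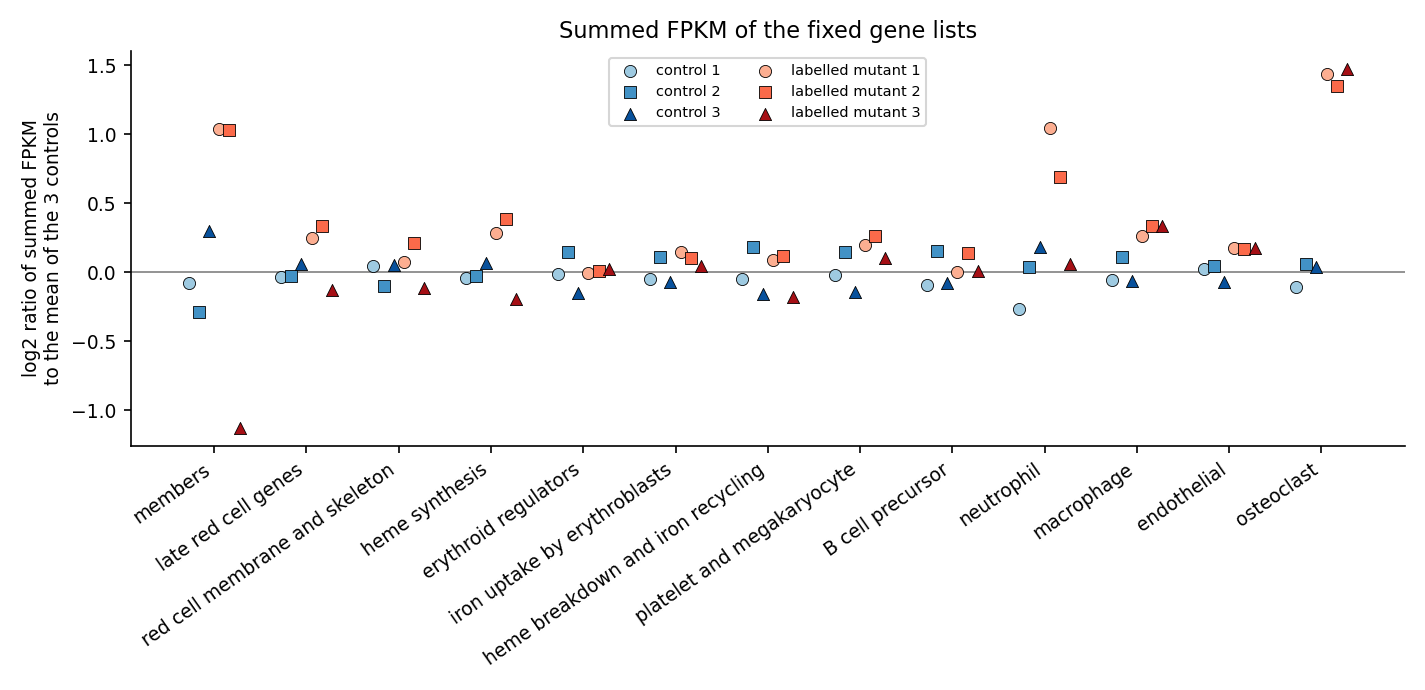
Log2 ratio of the summed FPKM of each fixed list to the mean of the 3 controls, 1 point per library, with the 9 red cell genes at the left. The summed level of the 9 genes runs from 5605 to 25147 FPKM across the libraries labelled mutant, while the osteoclast sum there stays between 1604 and 1750 FPKM.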

How the data were processed

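Total RNA of newborn calvaria was sequenced in 6 libraries after a stranded mRNA library preparation, per the labels' protocols. Groups and replicate numbers come from the sample titles. The authors deposited FPKM per gene name, for which the submitters' processing notes name Cufflinks 2.2.1, TopHat2 2.0.13, SAMtools 0.1.19, Bowtie2 2.2.3 and the build mm10. Their options, the annotation and the number of reads are not given in the sources used here. Cufflinks estimates how fragments shared by near-identical genes are divided, so copies were also summed. Median-of-ratios factors between libraries ran from 1.0024 to 1.003. By this measure the deposited values already had nearly the same scale, so a fit with that scaling nearly repeats the main fit.

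Gene names whose mean over the 6 libraries reached 1 FPKM entered limma 3.58.1 (R 4.3.3) as log2(FPKM + 1) (eBayes with trend, group as the 1 term, two-sided, Benjamini-Hochberg adjustment over 13180 names at 0.05), a procedure tested on simulated data. Sums and ratios were tested by exact permutation in scipy 1.17.1. The embryonic sum fell under the filter and was fitted only with no filter. The 9 genes and the 14 lists were chosen with earlier results of these data known. Of 157 list entries, 9 matched no row and were not analysed here, and 3 were matched by an older symbol. Named in each list are the 3 tested genes with the smallest p, any that passed and the 2 most abundant. Of the genes this rule names, 2 are not reported here. Others, such as Alas1, Fech, Ank1, Gata1, Klf1, Camp and Epo, were named after their values were seen. The other settings tried were a pseudocount of 0.1, no filter, a filter at 5 FPKM, 2 scalings, eBayes without trend, robust eBayes, a replicate block and the omission of each library. Coordinates and coding sequences are from GENCODE M21 and windows from RefSeq.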

Additional observations from a re-analysis of the deposited data

How the results depend on the processing

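In none of the 14 other settings did any of the tested red cell genes pass (0 of 5, or 0 of 8 with no filter and 0 of 4 with a filter at 5 FPKM, which removed Slc4a1). Their log2 differences kept their sign in the 8 settings that kept all libraries. Leaving out each library in turn gave ranges of -0.13 to 0.94 for Hba-a1, 0.05 to 1.26 for Hbb-b1, -0.41 to 0.58 for Hbb-b2, 0.01 to 1.06 for Alas2 and -0.0326 to 0.74 for Slc4a1. The ranges were -0.13 to 0.94 for the adult alpha sum and -0.0325 to 1.13 for the adult beta sum. They were -0.196 to 0.0785 FPKM for the embryonic sum, -0.096 to 0.00864 for the alpha to beta ratio and -0.00177 to -0.000213 percentage points for the embryonic share. Fewer samples entered each of these fits. The count of all names past the threshold went from 80 to between 16 and 44 when a library was left out, to 50 with no filter on low values and to 25 with the replicate number as a block. Same-numbered libraries did not deviate together (r = 0.0163, -0.0714 and 0.0152 for numbers 1 to 3, and 0 of 6 libraries correlated best with their own number). The levels thus gave no sign of a pairing by number, but such a check cannot exclude a pairing in the design. With the replicate block, 0 of the 5 genes passed. The depth of the libraries is unknown, and rows under 1 FPKM, the embryonic globins among them, enter limma only with no filter.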

Other observations

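The theta globins are alpha-like genes, and neither had exactly the order of the libraries seen in the adult globins. Hbq1b had 0.680, 0.460 and 0.957 FPKM in control libraries, against 1.60, 1.25 and 0.968 FPKM under the mutant label, so that library 3 was here just above every control. Its mean lay under the filter and it was not tested. Hbq1a stood at 0, 0.473 and 0.291 FPKM in the control group and at 0.685, 0.855 and 0 FPKM under the mutant label, with control 1 and library 3 both at 0. Hbb-bh2 was listed at 0 in all 6 libraries. Of all tested names, 178 or 1.35% had library 3 labelled mutant lowest and libraries 1 and 2 labelled mutant highest, the order held by the 5 tested red cell genes.

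Rare membrane genes were too low to test. Rhag, the Rh-associated glycoprotein gene, measured 0.0247, 0.146 and 0.108 FPKM across controls 1 to 3 and 0.355, 0.380 and 0.0351 FPKM across libraries 1 to 3 labelled mutant. Libraries 1 and 2 labelled mutant were the highest here, and control 1 was the lowest. Epb4.2, the older name of the protein 4.2 gene, had 0.398, 0.301 and 0.575 FPKM in control libraries, against 0.557, 0.839 and 0.0906 FPKM under the mutant label, where library 1 was below control 3.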
